A study of Aspergillus niger with 6 samples.

Results

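Genes of vesicle traffic were examined in Aspergillus niger, a filamentous fungus used for enzyme production, in a strain without rpnR (delta-rpnR) and in the control strain MA234.1. They were chosen by protein domain: a gene was taken when its annotation held at least 1 of 16 domains of small GTPases, SNAREs and their partners, coats and adaptors, GTPase regulators, the ATPase Vps4 or the exocyst. A gene placed in the pathway of protein processing in the endoplasmic reticulum was left out, which removed 1 gene, SAR1. This gave 96 genes of 11910 in the deposited table. The rule uses protein annotations and no measured value, but the members were chosen with earlier results of these data known.

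The labels name 3 libraries of delta-rpnR and 3 of MA234.1, both grown from conidia as shaken cultures at 30 °C, for 16 h with 1% glucose and then, after transfer, for 4 h with 25 mM xylose. By the title, rpnR encodes a putative regulator of transcription under the control of FlbA, with roles in secretion and in resistance to stress. Each gene has a single value for each strain in the authors' file, read here as FPKM (a fragment count divided by transcript length and by all fragments mapped), so no value below has a replicate error. Its sums were 872090 in delta-rpnR and 828095 in MA234.1, and the sequencing depth of the libraries is unknown. The background of either strain, and whether the deletion strain is 1 clone, are not given in the labels. No row carried the symbol rpnR, so the strain labels were not checked through the deleted gene.

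Proteins move between compartments in vesicles. Small GTPases of the Sar and Arf families recruit coats that shape a vesicle and select its cargo, Rab GTPases direct it to its target, and matching SNAREs on the 2 membranes fuse them with the help of Sec1-type proteins. Exchange factors (the Sec7 domain for Arf) switch the GTPases on, and GTPase-activating proteins (ArfGap for Arf, TBC for Rab) switch them off. In filamentous fungi such traffic carries enzymes and wall material to the growing hyphal tip.

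The transcripts of this machinery lay close together in the 2 strains. None of the 96 genes was called higher and 1 was called lower in delta-rpnR by the authors' deposited q-value with a limit of 0.05, where 3.29% of 9234 tested genes were called higher, 3.25% lower and 6.54% either way. The 1 called gene carries an adaptor domain beside a ribosomal protein domain and has the product name of a ribosomal protein. It was also the single member called with a limit of 0.01 (2.59% of all tested genes), with a limit of 0.1 (9.41%) and by the authors' flag, which adds a fold and a level (5.46%). With it left out, none of 95 was called at any of these. The lowest q among the others was 0.201. By an upper bound on the unadjusted p-value, computed from the authors' q, 2 of 96 members (2.08%) came under 0.05, against 18.1% of all tested genes. Beside a share of 6.54% called among all tested genes, that none was called says little in the classes and lists of few genes below.

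The narrowness can be given in folds. In 65 of 96 members (67.7%) the strains differed by less than 1.2-fold in FPKM, against 38.6% of all tested genes and 42.1% of the 7322 tested genes with a mean of at least 5 FPKM, a level that all 96 members reached. Only 4 members (4.17%) differed by 1.5-fold or more, against 32.9% of all tested genes. The middle 50% of the members' log2 ratios, taken as delta-rpnR over MA234.1 on the log2(FPKM + 1) scale, ran from -0.15 to 0.21, and that of all tested genes from -0.31 to 0.34. For the tested genes with a mean of at least 5 FPKM it ran from -0.30 to 0.33. These shares describe the deposited values and were not tested against other genes.

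Values lay on both sides of the control. Of 96 members 54 were above MA234.1 (56.3%; all tested genes 51.3%), with a median log2 ratio of 0.04, and with the values of both strains scaled to the same sum 42 were above (all tested genes 45.6%), with a median of -0.02. Summed over the 95 members without the ribosomal protein, FPKM in delta-rpnR was 1.02 times that in MA234.1. In bulk RNA, a different number of transcripts per cell and a different make-up of the mycelium cannot be told apart.

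**Figure D1:**
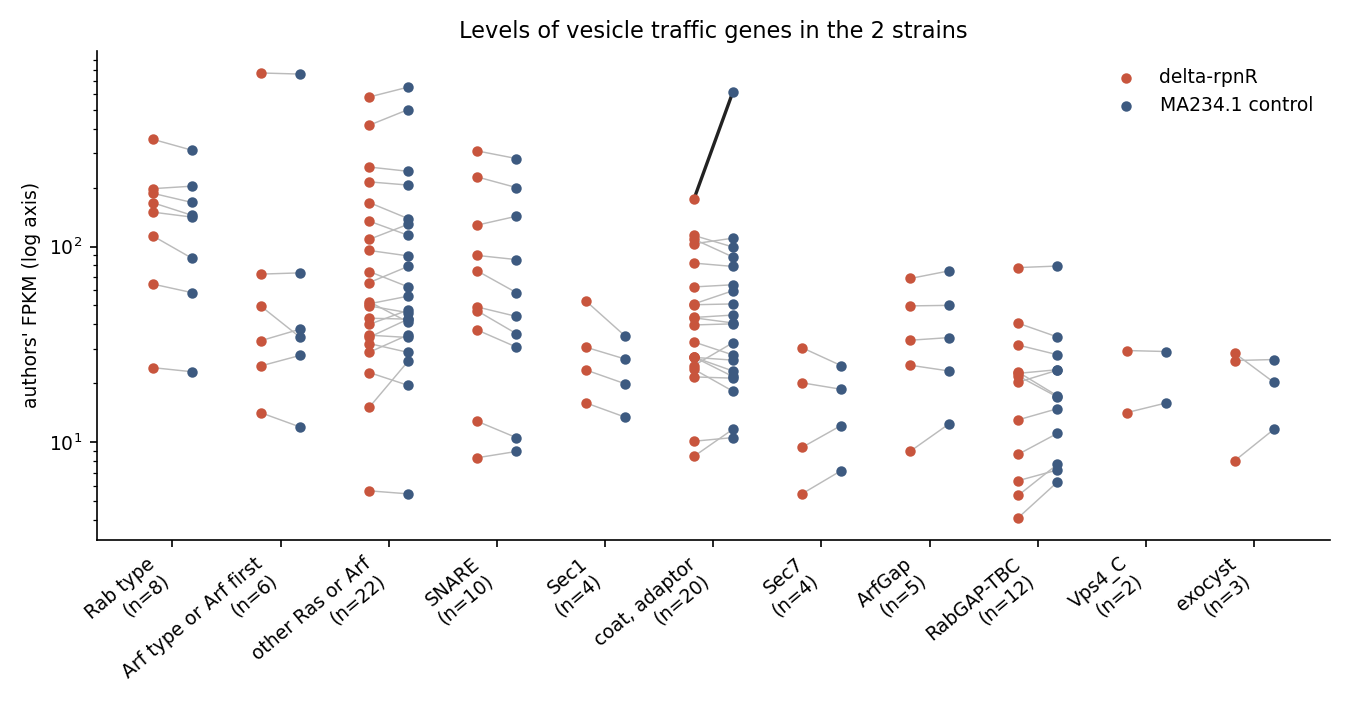
Authors' FPKM (log axis) of each of the 96 genes in delta-rpnR (left point) and MA234.1 (right point), joined by a line, by domain group. The black line is the called gene, at 174 FPKM in delta-rpnR and 612 FPKM in MA234.1, and the other lines are close to level.

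Small GTPases form the largest group. A Ras or Arf domain was found in 36 genes, 31 with each and 26 with both, because the 2 domain models overlap. They were therefore split by product name and by the first domain listed, after their values were seen. None of the 36 was called, against 6.54% of all tested genes, and 27 differed by less than 1.2-fold.

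Rab GTPases mark the membranes between which a vesicle travels. Of 8 genes with a Rab product name, 7 lay above the control (6 with equal sums), and none was called. Their median log2 ratio was 0.15 (0.07 with equal sums). The gene of the RAB1A type (protein 1001783), the Rab of traffic from the endoplasmic reticulum to the Golgi, had 352 FPKM in delta-rpnR and 310.2 FPKM in MA234.1. The RAB7A type (1147437), which acts at late endosomes and vacuoles, had the largest Rab difference, with 113 FPKM in delta-rpnR and 87.2 FPKM in MA234.1 (log2 ratio 0.37; q = 0.686). The RAB8A type (1001862), a Rab of the last step of secretion in animals, was at 149.8 FPKM in delta-rpnR and 141 FPKM in MA234.1.

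The 3 genes named RAB5C, the Rab of early endosomes, stood at unequal levels. They had 187, 167 and 24.1 FPKM in delta-rpnR (proteins 1032162, 1144708 and 1161540), against 168, 144 and 22.96 FPKM in MA234.1. All 3 lay above the control (2 with equal sums), by log2 ratios of 0.15, 0.21 and 0.07. The RAB11A type (1007333), which serves recycling endosomes and late Golgi compartments, was the only Rab below the control in the values as deposited, with 197 FPKM in delta-rpnR and 203 FPKM in MA234.1. The RAB2A type (1184480), a Golgi Rab, had 64.3 FPKM in delta-rpnR and 58.2 FPKM in MA234.1.

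Arf GTPases recruit coats to the Golgi and other membranes. ARF1 (1147989) was the most abundant of all 96 genes, at 768 FPKM in delta-rpnR and 758 FPKM in MA234.1 (log2 ratio 0.02; q = 0.993), and ranked 203 and 230 among all genes of those strains. ARF6 (1144808), the Arf of the plasma membrane, was at 72.3 FPKM in delta-rpnR and 73.4 FPKM in MA234.1. Of 4 genes with the Arf domain listed first and no product name, 2 lay above and 2 below the control. One of them (1095886) had the largest positive log2 ratio of all GTPase genes, 0.51 (q = 0.538), with 49.6 FPKM in delta-rpnR and 34.5 FPKM in MA234.1.

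Other GTPases with these domains have roles beyond traffic. RAN (1148300), the GTPase of nuclear transport, had 416 FPKM in delta-rpnR and 499.9 FPKM in MA234.1. The lowest log2 ratio of the uncalled members, -0.74, was that of a RAP1A-type gene (1164317), of the signalling branch, with 15.1 FPKM in delta-rpnR and 26.0 FPKM in MA234.1, and its q of 0.201 did not pass. The second RAP1A-type gene (1147309) had 28.9 FPKM in delta-rpnR and 35.4 FPKM in MA234.1. RHEB (192649), which signals to growth control, had 109 FPKM in delta-rpnR and 129.9 FPKM in MA234.1.

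The rule also took 3 genes for G-alpha subunits, which carry the Arf domain in addition to their own. The GNAI type (1041976) had 254 FPKM in delta-rpnR and 242 FPKM in MA234.1, and all 3 differed by less than 1.2-fold.

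**Figure D2:**
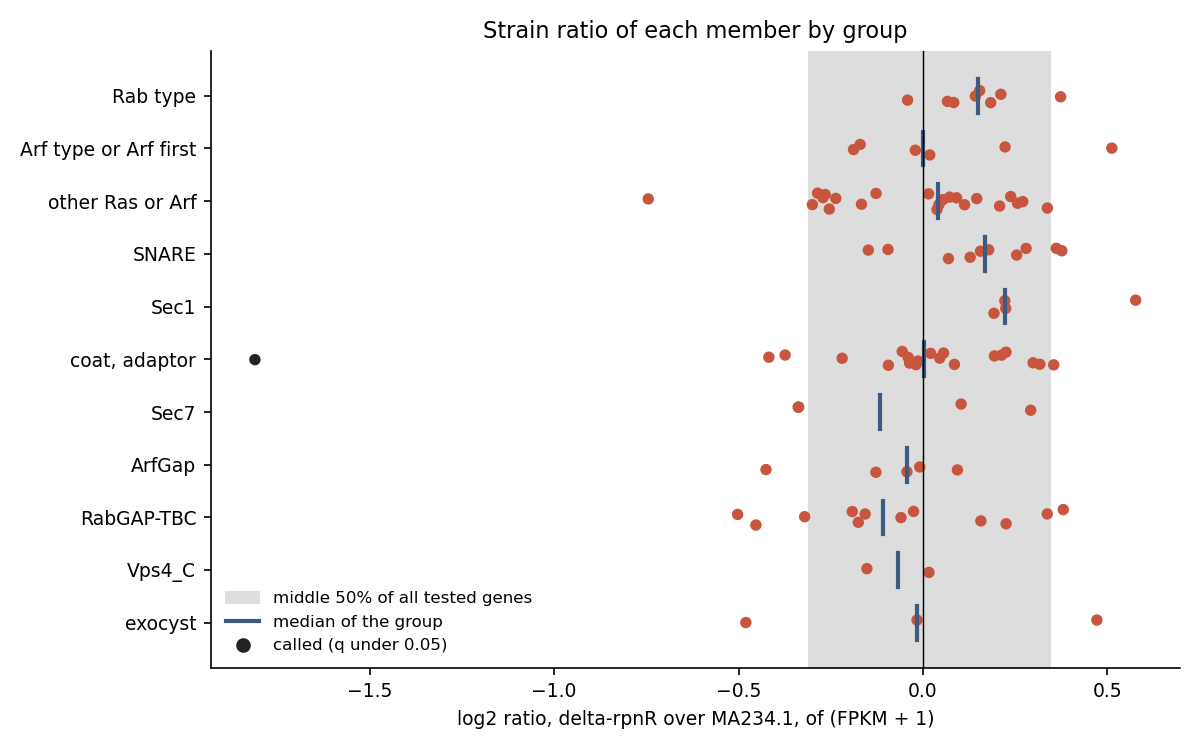
Log2 ratio of delta-rpnR over MA234.1 for each of the 96 genes (points), by domain group, with the median of each group (bar) and the middle 50% of all tested genes (grey, -0.31 to 0.34). The Rab, SNARE and Sec1 medians of 0.15, 0.17 and 0.22 lie right of 0. The Sec7, ArfGap, RabGAP-TBC, Vps4_C and exocyst medians of -0.12, -0.04, -0.11, -0.07 and -0.02 lie left of it. The only black point, at -1.81, is the called gene.

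SNAREs are the proteins that fuse membranes. Of 10 SNARE genes 8 lay above the control (7 with equal sums), with a median log2 ratio of 0.17 (0.09 with equal sums) and none called. All 4 with a synaptobrevin domain, the type carried by vesicles, lay above it under either scaling. The VAMP4 type (1143204) had 307 FPKM in delta-rpnR and 281 FPKM in MA234.1, and YKT6 (1146766), which works at the Golgi and vacuole, had 226 FPKM in delta-rpnR and 199.9 FPKM in MA234.1. SEC22 (1143463), a SNARE between the endoplasmic reticulum and the Golgi, was at 49.1 FPKM in delta-rpnR and 43.99 FPKM in MA234.1. The VAMP7 type (1188957) had the largest ratio of the class, 0.38 (q = 0.681), with 46.9 FPKM in delta-rpnR and 35.9 FPKM in MA234.1.

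The syntaxins and their relatives, which sit mostly on target membranes, lay above the control in 4 of 6 cases. The Golgi type STX5 (1185306) had 37.5 FPKM in delta-rpnR and 30.7 FPKM in MA234.1. The endosomal types STX7 (1146389) and STX8 (1163971) had 90.0 and 74.98 FPKM in delta-rpnR, against 85.8 and 58.2 FPKM in MA234.1. TLG1 (1200988) and STX16 (1222524), both of the trans-Golgi network and endosomes, were the least abundant, at 8.36 and 12.8 FPKM in delta-rpnR and 8.998 and 10.6 FPKM in MA234.1. A single transmembrane segment was predicted for 9 of the 10, all except YKT6, which is known to attach through lipids.

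Sec1-type proteins clasp SNAREs and make fusion efficient. All 4 genes lay above the control under either scaling, with a median log2 ratio of 0.22 (0.15 with equal sums), and none was called. The unnamed gene 1158203 had the largest positive ratio of all members, 0.58 (1.51-fold; q = 0.367), with 52.9 FPKM in delta-rpnR and 35.1 FPKM in MA234.1. The other unnamed gene (1180780) had 30.7 FPKM in delta-rpnR and 26.7 FPKM in MA234.1. VPS45 (1183373), the partner at endosomes, had 15.9 FPKM in delta-rpnR and 13.5 FPKM in MA234.1.

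**Figure D3:**
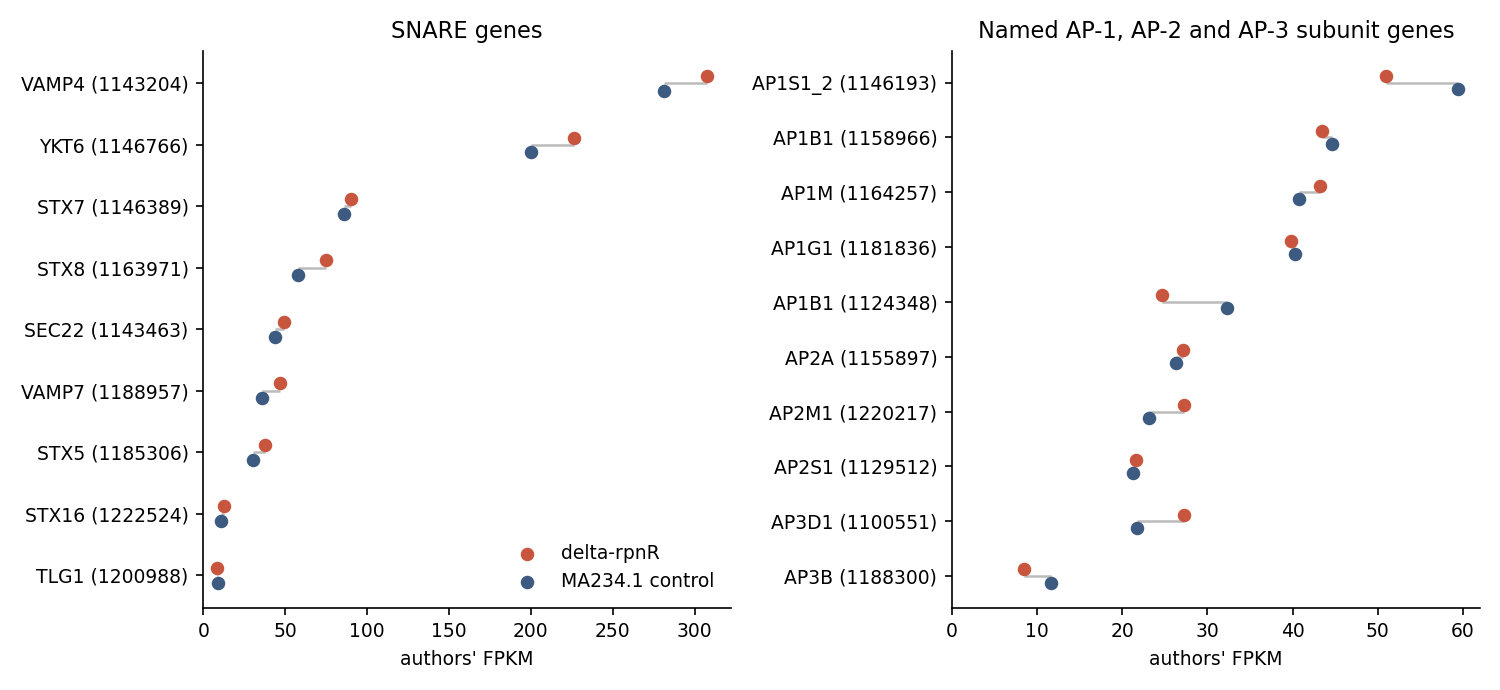
Authors' FPKM (linear axis from 0) of 9 of the 10 SNARE genes (left) and of the 10 genes named as AP-1, AP-2 or AP-3 subunits (right), with delta-rpnR and MA234.1 as paired points. SNARE levels run from 8.36 to 307 FPKM in delta-rpnR while the paired points stay near each other.

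Coats and adaptors select cargo and shape the vesicle. Of 20 genes with these domains 10 lay above and 10 below the control, with a median log2 ratio of 0.0034, and the 1 called gene of all members is here. It is protein 1180290, which carries a small-chain adaptor domain (Clat_adaptor_s) beside a Ribosomal_L7Ae domain and has the product name of RPL7A, a protein of the large ribosomal subunit. It fell to 174 FPKM in delta-rpnR, against 612 FPKM in MA234.1, with a log2 ratio of -1.81 (q = 0.00832 in the authors' deposited table). The 121 other tested genes with a domain of the Ribosomal_ series had a median log2 ratio of -1.43, and 57 of them were called lower and none higher. The table gives 1 value for 1180290, so the parts of it that belong to either domain cannot be told apart, and whether its gene model joins 2 genes was not tested.

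Without it, the 19 other coat and adaptor genes had a median log2 ratio of 0.02 (-0.05 with equal sums), and none of them differed by 1.5-fold. The clathrin heavy chain (1138041), which forms the outer cage, was at 103 FPKM in delta-rpnR and 110.3 FPKM in MA234.1. The 2 coatomer genes taken by the rule, which hold beta and gamma subunit domains (1129241 and 1120768), had 62.2 and 82.3 FPKM in delta-rpnR, against 63.8 and 79.1 FPKM in MA234.1. An unnamed gene with a small-chain adaptor domain (1183045) was at 114 FPKM in delta-rpnR and 99.5 FPKM in MA234.1.

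The adaptor complexes bridge clathrin and cargo at the trans-Golgi (AP-1), at the plasma membrane (AP-2) and on the way to the vacuole (AP-3). The 5 genes named for AP-1 spanned 24.7 to 50.9 FPKM in delta-rpnR and 32.3 to 59.4 FPKM in MA234.1, and the 3 named for AP-2 spanned 21.6 to 27.3 FPKM in delta-rpnR and 21.3 to 26.3 FPKM in MA234.1. Subunits of 1 complex did not all lie on the same side of the control. The AP-3 delta gene (1100551) had 27.3 FPKM in delta-rpnR and 21.7 FPKM in MA234.1, while the AP-3 beta gene (1188300) had 8.48 FPKM in delta-rpnR and 11.7 FPKM in MA234.1, neither of them called (q = 0.806 and 0.599). Of 2 genes named for AP-1 beta, 1124348 was at 24.7 FPKM in delta-rpnR and 32.3 FPKM in MA234.1, and 1158966 at 43.4 FPKM in delta-rpnR and 44.7 FPKM in MA234.1.

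Clathrin repeats also occur in proteins that tether vesicles to the vacuole. The gene with a Vps11 domain (1187413) had the largest positive ratio of the coat and adaptor class, 0.35 (q = 0.685), with 23.7 FPKM in delta-rpnR and 18.3 FPKM in MA234.1. Gene 1087026 holds Vps39 domains together with those of a phosphofructokinase-type enzyme, its product name, and had 32.6 FPKM in delta-rpnR and 27.98 FPKM in MA234.1. Whether this gene model joins 2 genes was not tested either, so these values may not be the level of a tether gene. VAC8 (1149135), a vacuolar armadillo protein taken through the Adaptin_N domain, was at 50.4 FPKM in delta-rpnR and 50.9 FPKM in MA234.1.

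Of 21 genes for regulators that switch GTPases on and off, 7 lay above the control, with a median log2 ratio of -0.06. Exchange factors with a Sec7 domain, which load Arf with GTP, were 4 genes, 2 above and 2 below. The GBF1 type (1128488), which acts at the early Golgi, had 20.2 FPKM in delta-rpnR and 18.7 FPKM in MA234.1. The 2 ARFGEF-type genes lay on opposite sides of the control: 1164197 had 30.5 FPKM in delta-rpnR and 24.7 FPKM in MA234.1, and 1160319 had 9.43 FPKM in delta-rpnR and 12.2 FPKM in MA234.1 (log2 ratios 0.29 and -0.34). The fourth gene (1172493) had 5.47 FPKM in delta-rpnR and 7.17 FPKM in MA234.1.

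Of 5 ArfGap genes, which end Arf signals, 4 lay below the control under either scaling, with a median log2 ratio of -0.04. The ARFGAP2_3 type (1124436), a coatomer partner, had 68.7 FPKM in delta-rpnR and 75.1 FPKM in MA234.1. The lowest ratio was that of a SMAP-type gene (1110679), with 9.02 FPKM in delta-rpnR and 12.5 FPKM in MA234.1 (log2 ratio -0.43; q = 0.587). ARFGAP1 (1175775) was at 49.8 FPKM in delta-rpnR and 50.1 FPKM in MA234.1, and the gene with an additional PH domain (192051) at 24.8 FPKM in delta-rpnR and 23.2 FPKM in MA234.1.

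TBC proteins, which end Rab signals, were 12 genes. Of these 8 lay below the control under either scaling, with a median log2 ratio of -0.11. The 5 least abundant, including BUB2 (1162328) of the mitotic exit checkpoint, all lay below it, while the 7 others were 4 above and 3 below. The lowest ratio was that of 1168952, with 4.14 FPKM in delta-rpnR and 6.28 FPKM in MA234.1 (log2 ratio -0.50; q = 0.423), and the highest that of 1174161, with 22.8 FPKM in delta-rpnR and 17.3 FPKM in MA234.1 (log2 ratio 0.38; q = 0.663). The most abundant (1081923) was at 78.1 FPKM in delta-rpnR and 79.5 FPKM in MA234.1.

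Vps4 takes apart the ESCRT complexes that sort membrane proteins into the vacuole. VPS4 (1166087) had 29.5 FPKM in delta-rpnR and 29.1 FPKM in MA234.1, and the second gene with its C-terminal domain (1155426) had 14.2 FPKM in delta-rpnR and 15.9 FPKM in MA234.1. The exocyst tethers secretory vesicles to the plasma membrane. EXO70 (1164951) was at 26.2 FPKM in delta-rpnR and 26.5 FPKM in MA234.1. The 2 genes with a Sec10 domain also lay on opposite sides: 1110105 had 28.5 FPKM in delta-rpnR and 20.3 FPKM in MA234.1 (log2 ratio 0.47; q = 0.514), and 1101564 had 8.07 FPKM in delta-rpnR and 11.7 FPKM in MA234.1 (log2 ratio -0.48; q = 0.493).

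The members were also grouped by level. Of the 16 members with a mean from 5 to under 15 FPKM 4 lay above the control, with a median log2 ratio of -0.25, where 46.1% of 2297 tested genes in that range lay above it, with a median of -0.05. Of the 45 members from 15 to under 50 FPKM 30 lay above it, with a median of 0.09, where 49.96% of 2672 tested genes did. Of the 35 members from 50 to under 1000 FPKM 20 lay above it, with a median of 0.06, where 55.3% of 2198 tested genes did. With equal sums the counts were 3 of 16, 24 of 45 and 15 of 35, and the median of the highest range was -0.02. The ranges were set after the values were seen, and the difference was not tested.

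**Figure D4:**
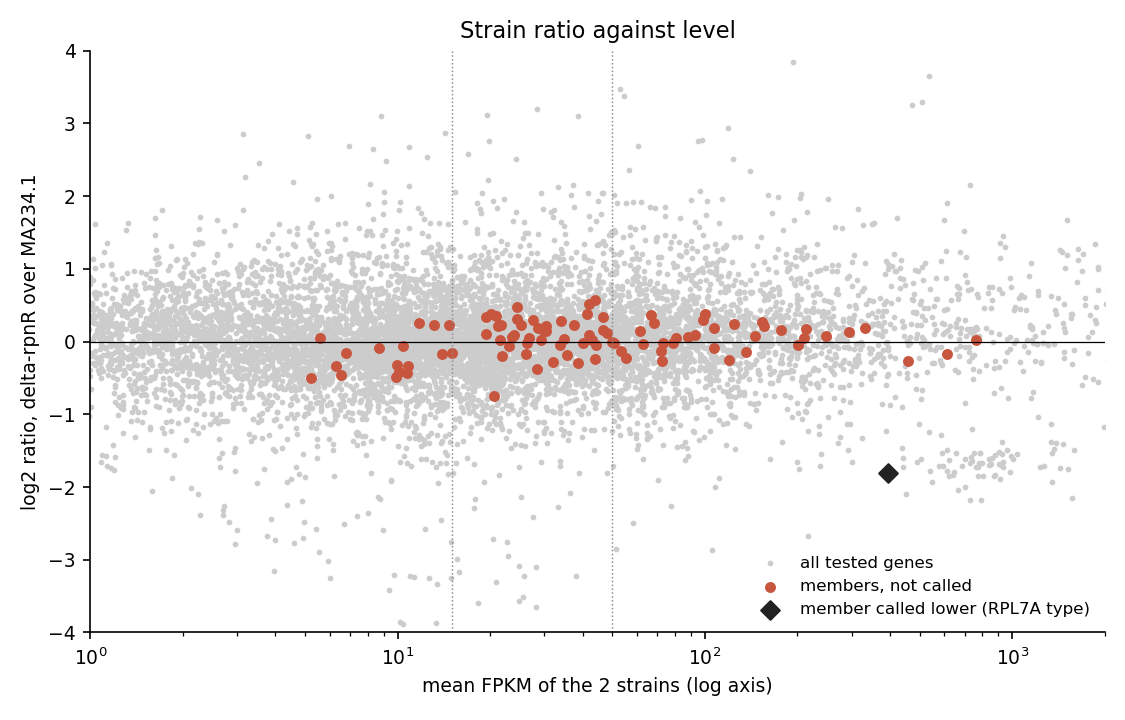
Log2 ratio of delta-rpnR over MA234.1 against mean FPKM (log axis) for the members (coloured) and all tested genes (grey; genes outside the drawn axes are not shown), with dotted lines at 15 and 50 FPKM. Left of the first line 12 of 16 members lie below 0, and the called RPL7A-type gene stands alone among the members at -1.81.

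Genes of the pathway that the domain rule does not take were counted in 11 lists by domain or product name. They held 68 genes, 62 of them tested, and none was called, against 6.54% of all tested genes. Of the 62, 40 lay above the control (32 with equal sums), with a median log2 ratio of 0.09 (0.02 with equal sums). Cargo receptors, which collect proteins for vesicles leaving the endoplasmic reticulum and Golgi, had the highest list median, 0.20 over 6 genes, of which 4 lay above the control under either scaling. The receptor-type gene 1162283, with a COPIIcoated_ERV domain, had 93.3 FPKM in delta-rpnR and 57.3 FPKM in MA234.1 (1.63-fold; q = 0.436), and the most abundant, the p24-type gene 1129272, had 116 FPKM in delta-rpnR and 100.2 FPKM in MA234.1.

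The COPII coat, which buds vesicles from the endoplasmic reticulum, had 5 of 7 genes above the control (4 with equal sums). Its GTPase SAR1 (1142222) had 203 FPKM in delta-rpnR and 209 FPKM in MA234.1, and a SEC24-type gene (1108540) had the largest ratio of the list, with 66.9 FPKM in delta-rpnR and 49.9 FPKM in MA234.1 (log2 ratio 0.42; q = 0.695). Of the COPI coat, the epsilon-domain gene (1188880) had 133 FPKM in delta-rpnR and 100.4 FPKM in MA234.1, and COPA (1136856) 127.6 FPKM in delta-rpnR and 128 FPKM in MA234.1. Of 10 ESCRT genes 9 lay above the control, but 5 with equal sums, the CHMP4 type (1188341) being the most abundant at 80.5 FPKM in delta-rpnR and 69.99 FPKM in MA234.1. The largest ESCRT ratio was that of the CHMP1 type (1162054), with 58.9 FPKM in delta-rpnR and 43.0 FPKM in MA234.1 (log2 ratio 0.44; q = 0.620).

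Of 6 retromer-type genes, whose products return receptors from endosomes, 4 lay above the control (3 with equal sums). The largest ratio and the highest level were those of a Vps5-domain gene (1184559), with 70.2 FPKM in delta-rpnR and 51.3 FPKM in MA234.1 (log2 ratio 0.44; q = 0.582). NSF (1122226) and its adaptor SNAP (NAPA type, 1144417), which recycle SNAREs after fusion, had 48.5 and 86.8 FPKM in delta-rpnR, against 44.5 and 79.3 FPKM in MA234.1. The most abundant GDI gene (1144506), for the chaperone that carries Rabs in the cytosol, had 222 FPKM in delta-rpnR and 170.1 FPKM in MA234.1 (log2 ratio 0.38; q = 0.764), and a second GDI-domain gene (1183226) had 8.49 FPKM in delta-rpnR and 13.8 FPKM in MA234.1 (log2 ratio -0.64; q = 0.331).

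Tethers hold a vesicle at its target membrane before fusion. The 6 genes matched as other exocyst subunits were 3 above and 3 below the control under either scaling. The Sec8-domain gene (1159410) had 26.7 FPKM in delta-rpnR and 33.7 FPKM in MA234.1, the highest level and largest ratio of that list (-0.32, q = 0.779). It also holds peptidase-type domains, and 1101384 also holds a Vps53_N domain. The Sec15-domain gene 1103925 has the product name of GPI7, an ethanolaminephosphotransferase. Whether these gene models join separate genes was not tested, so the values may not be those of exocyst genes. The 8 TRAPP-type genes were 4 above and 4 below, and 1 of them (182597) has the product name of PIAS1, a SUMO ligase. The highest level was that of a Sybindin-domain gene (1175888), with 31.4 FPKM in delta-rpnR and 36.7 FPKM in MA234.1. The largest ratio was that of 1103082, with 31.1 FPKM in delta-rpnR and 25.6 FPKM in MA234.1. Both HOPS and CORVET genes outside the rule lay above it, the Vps18-domain gene (1165800) with 33.3 FPKM in delta-rpnR and 28.5 FPKM in MA234.1. Of 14 genes with a dynamin domain 9 were tested, 4 above and 5 below the control, with 139 FPKM in delta-rpnR and 128 FPKM in MA234.1 for the most abundant (1158434), which also holds ATPase domains of the vacuolar proton pump. The dynamin-1-like gene 1110119 had 42.5 FPKM in delta-rpnR and 53.4 FPKM in MA234.1.

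A further list of 6 genes with other SNARE-type domains, formed after the values were seen, had 2 above and 4 below the control and none called. VTI1 (1126561), a SNARE of Golgi and vacuole, had 56.1 FPKM in delta-rpnR and 44.6 FPKM in MA234.1, and the Golgi SNARE of the GOSR1 type (1140221) had 37.1 FPKM in delta-rpnR and 45.1 FPKM in MA234.1. The GOSR2 type (180621) had 33.8 FPKM in delta-rpnR and 29.3 FPKM in MA234.1. The log2 ratios of the remaining genes, 1158485, 1186099 and 1188865, were -0.06, -0.04 and -0.02. Gene 1158485 was taken through a Sec20 domain but has the product name of a replication factor C subunit. Its values may not be those of a SNARE gene. The count above the control was 2 of 6 in this list and 8 of 10 in the SNARE genes taken by the rule. Several ratios of this list lay near 0. Whether the lists differ was not tested.

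**Figure D5:**
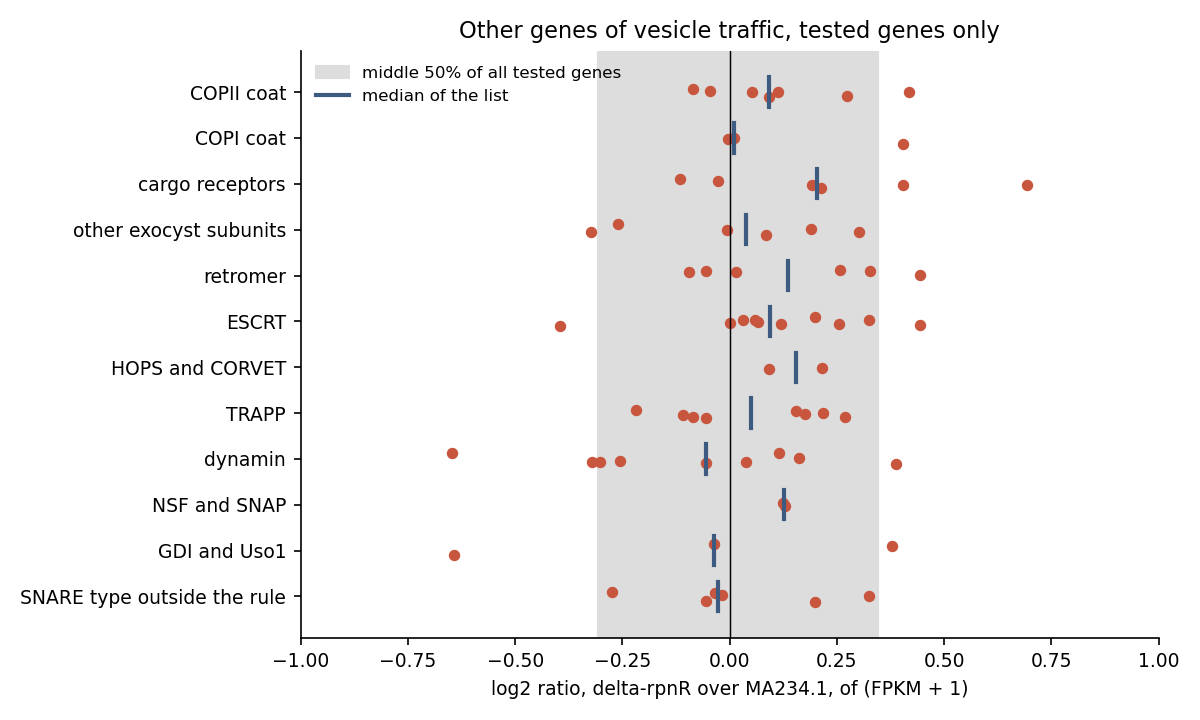
Log2 ratio of delta-rpnR over MA234.1 for the tested genes of the 11 lists outside the domain rule and of the further SNARE-type list (points), with list medians (bars) and the middle 50% of all tested genes (grey). Points run from -0.65 to 0.69 and the highest list median is that of the cargo receptors, 0.20.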

How the data were processed

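The submitters' processing notes list Cuffdiff 2.2.1, Cufflinks, TopHat2, Trimmomatic and CASAVA 1.8.3, with no role given. Their genome build is not given in the sources used here. Deposited by the authors were 1 value per gene and strain, read as FPKM because Cuffdiff reports that unit, and their q-value for the comparison. How the libraries were scaled is not stated. If the values are relative to all fragments, genes that take a smaller share raise the values of the rest. The series' design text speaks of duplicates and the labels of 3 libraries per strain. How the authors combined them is not stated.

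No own test could be run. Genes with a deposited q-value below 0.05 were called. The 2676 genes with q = 1 (at most 7.50 FPKM) were taken as not tested. Log2 ratios used a pseudocount of 1, which understates low genes. The bound on the unadjusted p was q times its rank over 9234, assuming Benjamini-Hochberg adjustment. Genes with domains of several classes count in each. Named genes were those called, those with the 6 lowest q, the 3 most abundant, the most abundant and most changed per class, all members of classes of 4 or fewer, and like picks per outside list. Other members named were chosen after their values were seen, as were the GTPase subgroups and level ranges. The members and lists were chosen with earlier results of these data known. The numbers of predicted transmembrane segments are the deposited ones. The ratio and the domain rule were tested on simulated data. A few members counted in the groups are not reported here singly. Python 3.11.15, pandas 2.3.3 and numpy 2.4.6 were used. Gene coordinates and sequences were not used here, since the protein numbers were not paired with the reference table's locus tags.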

Additional observations from a re-analysis of the deposited data

How the results depend on the processing

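The count of members called lower was 1 at a q under 0.05, 0.01 or 0.1 and by the authors' own flag, which also asks for a 2-fold change, and 0 with the ribosomal protein left out, by construction. The count called higher was 0 under each of these. Class medians moved by at most 0.1 on the log2 scale with a pseudocount of 0.1 or 5, centring or equal sums. A minimum mean of 5 FPKM removed none of the 96 members, and neither did leaving out genes not tested by the authors, so these filters test nothing here. The shift of all tested genes with equal sums was from a median of 0.02 as deposited to -0.05, and the share of members above the control moved from 56.3% to 43.8%. The medians of the Ras, Arf, and coat and adaptor classes then changed sign (-0.02, -0.0022 and -0.07). Of 58 values of single named members 5 moved by more than 0.1, all toward 0 with a pseudocount of 5. No paired analysis was possible because the libraries of a strain share 1 value, and for the same reason no replicate could be left out. Without a depth or a replicate error, small ratios cannot be told from noise.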
